A study of Mus musculus with 4 samples.

Results

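The open chromatin of mouse imprinted genes was described in myoblasts with and without Tet2. Of 39 imprinted genes listed, 38 were found in the GENCODE M1 annotation of mm9, and Kcnq1ot1, which was missing there, was left out as a gene. An ATAC-seq peak was counted for a gene when any part of it lay between 10000 bp upstream of the gene start and the end of the gene. By this rule 49 of 25775 listed WT peaks and 5 of 3836 listed Tet2 KO peaks belonged to the imprinted genes. The genes form 17 clusters, in which neighbours share a control region or lie side by side.

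ATAC-seq uses the transposase Tn5 to cut and tag accessible DNA, and a peak is an interval in which more fragments were stacked than in the sequence around it. Satellite cells, the stem cells of skeletal muscle, were sorted from hindlimb muscle of C57BL/6 mice as cells without CD45, CD11b, CD31 and Sca1 and with CD34 and integrin alpha 7, and became MyoD+ myoblasts during 3 days of culture. There were 2 WT samples and 2 Tet2 KO samples, with 5000 cells per library. Tet2 KO mice carried a constitutive deletion of exon 3 of Tet2, so Tet2 was disrupted in all cells and not in muscle alone, and the labels gave no age or sex, while the methods describe young adult male mice as the default. Per genotype 1 peak list was analysed, and which of the 2 samples it came from is not known. No difference between genotypes was therefore tested, and intervals are Wilson 95% intervals, which cover counting error only.

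Imprinted genes are expressed from the maternal or the paternal copy alone, at least in some tissues. The choice is set by CpG methylation that is laid down in the egg or the sperm at differentially methylated regions (DMRs) and kept on that copy in body cells, for which the zinc finger protein ZFP57 binds the methylated motif TGCCGC. At most of these DMRs the mark comes from the egg and covers a promoter that is then used on the paternal copy. Several imprinted genes act in muscle growth: Igf2 and Igf2r set the supply of the growth factor IGF2, Grb10 dampens insulin and IGF receptor signals, Cdkn1c stops the cell cycle, and Dlk1 and Peg3 have been studied in muscle stem cells. Tet2 oxidises 5-methylcytosine, a step towards its removal. In an inbred strain the parental copies carry the same sequence, so these lists cannot tell a site open on 1 copy from a site open on both, and neither can they tell fewer open cells from less open DNA per cell.

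Peaks at start sites inside DMRs methylated in the egg are given first. Of the 12 annotated genes whose promoter lies in such a DMR, 2 had a WT peak at the GENCODE M1 start, Peg3 and Airn. A peak in Kcnq1 covered the start of Kcnq1ot1. None of these starts had a listed Tet2 KO peak, and 10 Tet2 KO numbers were skipped around Peg3. The GENCODE M1 start may not be the one in the DMR. It lies 230577 bp from the nearest RefSeq start for Usp29 and 9959 bp for Mest. Snrpn has another RefSeq start, at position 67150085, that holds TGCCGC. The 2 of 12 is therefore a count of GENCODE M1 starts and not of DMR promoters. The WT intervals at Peg3, Airn and Kcnq1ot1 are shown 5′ to 3′ on the plus strand of mm9 (NCBIM37), with each CG in capitals. Peg3 is at chr7:6683133-6683281, Airn at chr17:12934064-12934267 and the Kcnq1ot1 start at chr7:150482433-150482671.
Peg3 start: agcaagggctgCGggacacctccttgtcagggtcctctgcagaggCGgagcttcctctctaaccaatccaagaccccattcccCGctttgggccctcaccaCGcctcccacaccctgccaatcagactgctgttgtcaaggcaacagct
Airn start: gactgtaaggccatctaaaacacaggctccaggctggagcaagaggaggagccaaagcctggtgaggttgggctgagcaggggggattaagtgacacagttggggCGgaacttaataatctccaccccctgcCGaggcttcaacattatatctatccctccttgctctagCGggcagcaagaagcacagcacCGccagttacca
Kcnq1ot1 start: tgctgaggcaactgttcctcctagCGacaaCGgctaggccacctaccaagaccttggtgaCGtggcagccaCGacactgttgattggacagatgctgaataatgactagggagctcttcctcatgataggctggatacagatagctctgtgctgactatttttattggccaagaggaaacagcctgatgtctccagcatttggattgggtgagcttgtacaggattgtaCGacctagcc

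These intervals hold 4, 4 and 5 CpG sites, and the 500 bp centred on the same peaks hold 25, 15 and 17. The CpG-rich promoter peaks of Zim1, Ube3a and Commd1 are shown in the same way for contrast, and hold 16, 29 and 21. In the 500 bp centred on these peaks the counts are 28, 40 and 33. The printed intervals differ in length, and the contrast peaks were picked as CpG-rich. The counts therefore do not describe open sites at egg-methylated DMRs in general. Impact, also a gene with a DMR promoter, had 2 CpG-rich intronic peaks, with 36 and 32 sites in 500 bp. Zim1 is at chr7:6649130-6649388, Ube3a at chr7:66483925-66484174 (the part of the peak nearest the start) and Commd1 at chr11:22882164-22882435.
Zim1 start: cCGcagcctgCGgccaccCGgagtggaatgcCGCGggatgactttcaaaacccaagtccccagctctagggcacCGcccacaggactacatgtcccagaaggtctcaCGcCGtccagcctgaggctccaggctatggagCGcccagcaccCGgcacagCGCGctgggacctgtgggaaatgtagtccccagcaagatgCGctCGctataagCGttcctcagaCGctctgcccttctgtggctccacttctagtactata
Ube3a start: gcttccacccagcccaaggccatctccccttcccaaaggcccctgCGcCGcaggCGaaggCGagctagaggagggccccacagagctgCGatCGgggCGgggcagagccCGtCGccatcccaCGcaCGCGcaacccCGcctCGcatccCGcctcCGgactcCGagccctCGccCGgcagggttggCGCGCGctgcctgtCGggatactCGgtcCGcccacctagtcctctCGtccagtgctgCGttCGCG
Commd1 start: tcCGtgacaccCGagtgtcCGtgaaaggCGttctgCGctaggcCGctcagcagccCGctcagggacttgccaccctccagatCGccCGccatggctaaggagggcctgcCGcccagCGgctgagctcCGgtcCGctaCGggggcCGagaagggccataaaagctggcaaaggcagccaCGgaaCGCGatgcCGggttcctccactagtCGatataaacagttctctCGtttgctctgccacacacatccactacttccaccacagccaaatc

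The peaks found in both lists are shown at the Tet2 KO interval, again on the plus strand but with capitals at the motifs searched. They are an intron of Grb10 at chr11:11839700-11839834, an intron of Ddc at chr11:11720900-11721018, the shared window of Igf2r and Airn at chr17:12952693-12952861, and the Inpp5f promoter at chr7:135754638-135754822. The remaining shared peak, in Ddc at chr11:11744406-11744630, held none of the motifs within its Tet2 KO interval and is not printed.
Grb10 intron: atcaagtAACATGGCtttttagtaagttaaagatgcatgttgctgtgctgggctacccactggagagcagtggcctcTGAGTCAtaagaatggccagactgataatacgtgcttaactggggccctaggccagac
Ddc intron: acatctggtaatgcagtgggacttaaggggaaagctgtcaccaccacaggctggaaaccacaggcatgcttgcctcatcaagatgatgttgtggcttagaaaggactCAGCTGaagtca
Igf2r and Airn intron: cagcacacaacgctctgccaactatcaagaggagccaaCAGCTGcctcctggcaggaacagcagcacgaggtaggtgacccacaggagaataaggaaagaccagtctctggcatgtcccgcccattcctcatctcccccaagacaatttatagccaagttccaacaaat
Inpp5f promoter: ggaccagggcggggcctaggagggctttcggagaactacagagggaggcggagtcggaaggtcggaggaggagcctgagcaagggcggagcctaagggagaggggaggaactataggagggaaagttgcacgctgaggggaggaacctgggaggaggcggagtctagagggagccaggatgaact

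The motifs were TGCCGC of ZFP57, the E box CAGCTG bound by MyoD, the AP-1 site TGANTCA, the core of the CTCF site and GCCATNTT of YY1, each read on both strands. The YY1 motif was added after the values had been seen. The Grb10 interval holds TGAGTCA and 1 match to GCCATNTT on the minus strand, the Ddc and the Igf2r and Airn intervals hold 1 CAGCTG each, and the Inpp5f interval holds none of the 5 motifs. A match is a description of the letters and was not tested for binding.

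The depth of the lists can be read from the peak values. The fold enrichment and the -log10 p that MACS2 gave each summit were solved for the number of fragments stacked there. By this measure the background was 0.649 fragments per position in WT. In Tet2 KO it was 1.384, which is 2.13 times as many, so the shorter list came from the library with more background coverage. MACS2 numbers its peaks along each chromosome, and both lists skip numbers, 9707 in WT and 4403 in Tet2 KO, so each list is a part of what was called. Where the listed neighbours of a site have consecutive numbers, no other peak was called between them. At Tet2 itself 3 WT peaks and 0 Tet2 KO peaks were listed, which does not bear on the deleted exon. Of 8 myoblast marker genes 7 had a WT peak and 4 a Tet2 KO peak, Myod1 among both, and Myf5 had none, beside 49.6% and 13.6% of protein-coding and lincRNA genes. The other cell types were not all without peaks: 3 of 4 annotated leukocyte genes (3 WT peaks, 1 Tet2 KO peak) and 3 of 4 endothelial genes (7 WT peaks, 1 Tet2 KO peak) had a WT peak, against 0 of 4 fibro-adipogenic genes, with the same shares over all genes beside them, although CD45+ and CD31+ cells were sorted away. Their part in the results was not tested.

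Imprinted genes had a WT peak in their window about as often as protein-coding and lincRNA genes, without adjustment for window length. Member windows had a median of 30852.5 bp, against 15361.5 bp for all genes. At the gene start itself the WT share was lower, 15.8% of members beside 25.2% of protein-coding and lincRNA genes. A WT peak was listed for 19 of 38 members (50%, interval 34.8 to 65.2%), beside 36.6% of all 37310 annotated genes and 49.6% of protein-coding and lincRNA genes. A Tet2 KO peak was listed for 5 of 38 (13.2%, interval 5.75 to 27.3%), beside 9.61% and 13.6%. Those 5 were Grb10, Ddc, Igf2r, Airn and Inpp5f, and all 5 also had WT peaks. Thus 5 of the 19 members with a WT peak also had a Tet2 KO peak. Over all genes with a WT peak this share was 25.9%, and over protein-coding and lincRNA genes 27.1%. No member had more Tet2 KO than WT peaks. Of the 14 members with a WT peak and no listed Tet2 KO peak, 3 had no Tet2 KO number skipped. At the others a site called but not listed cannot be told apart from none. Igf2r and Airn overlap in opposite directions and share 4 WT peaks and their only Tet2 KO peak. Per Mb of sequence, the 2.06 Mb of member windows held 23.8 WT and 2.43 Tet2 KO peaks, and the windows of all genes held 15 and 2.40.

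**Figure D1:**
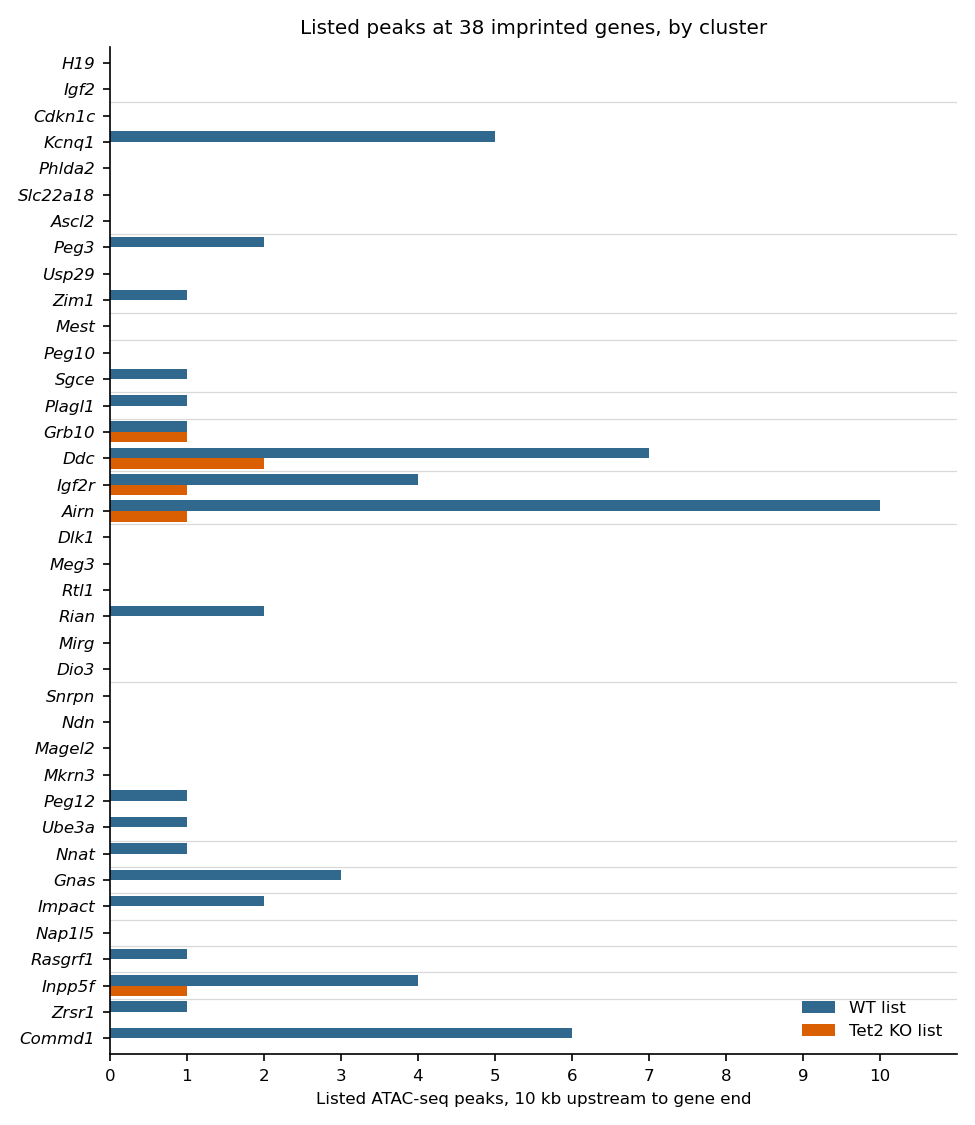
Number of listed peaks (x axis) from 10000 bp upstream to the end of each of the 38 imprinted genes (y axis), with grey lines between clusters, blue bars for the WT list and orange bars for the Tet2 KO list. Airn has the most WT peaks, 10, Ddc has 7 and Commd1 6, while orange bars stand only at Grb10, Ddc, Igf2r, Airn and Inpp5f.

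The 49 WT peaks stood against 5 Tet2 KO peaks, a ratio of 9.8, and over all peaks the ratio was 6.72. The lists reach different limits: the smallest -log10 q is 2.18 in WT and 0.863 in Tet2 KO, so the Tet2 KO list includes the weaker calls by this measure. The weakest WT calls meet the q limit that the paper gives for MACS2, and the weakest Tet2 KO calls do not. The deposited score follows the -log10 q in WT and the -log10 p in Tet2 KO. The lists may thus have been cut by different measures, which was not tested and bears on each count set between them. Of the 49, 5 were overlapped by a Tet2 KO peak (10.2%, interval 4.44 to 21.8%), beside 14.1% of all WT peaks, and the interval holds that share. With overlap required over at least 50% of each peak, 0 of the 49 had a Tet2 KO peak, beside 10% of all WT peaks, since each of the 5 Tet2 KO intervals lies inside its WT peak and covers less than 50% of it. With the WT summit required inside the Tet2 KO peak, 4 of the 49 had one, and no share over all WT peaks was taken under this rule. For 43 of the 49 no Tet2 KO peak lay within 500 bp, beside 84.7% of all WT peaks. In the other direction 5 of 5 Tet2 KO peaks overlapped a WT peak, beside 96.8% of all Tet2 KO peaks. The ratio depended on the length of the lists: when the WT list was cut to as many peaks as the Tet2 KO list, by the highest -log10 q, 7 WT peaks at 6 members remained and the ratio was 1.4, where that over all peaks is 1 by construction, and 3 of the 7 had a Tet2 KO peak, beside 55.3% of all WT peaks kept. Ranked by fold enrichment into 5 equal groups of all WT peaks, the strongest group held 11 member peaks, of which 4 had a Tet2 KO peak (36.4%, all WT peaks 41.9%), and the weakest group held 11, of which 0 had one (all WT peaks 1.75%).

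The strength of the member peaks was that of the list. Their median fold enrichment was 7.63, from 4.02 to 19, and that of all WT peaks was 7.89. The median summit stacked 17 fragments, against 16 over all WT peaks. The 5 Tet2 KO member peaks had a median fold enrichment of 5.46, against 5.59 over all Tet2 KO peaks.

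**Figure D2:**
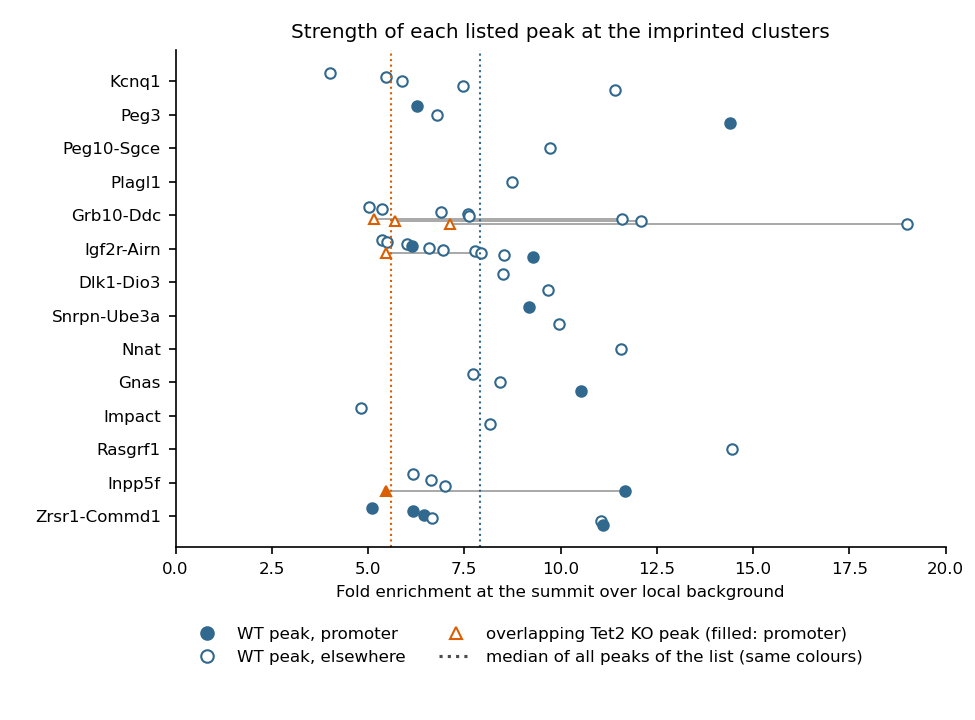
Fold enrichment at the summit (x axis) of each listed peak in the 14 clusters with a peak (y axis), with circles for WT, triangles for the overlapping Tet2 KO peak joined to its WT peak by a grey line, filled symbols for promoters and dotted lines for the median of all peaks of each list. The Grb10 intron at 19 stands farthest right, and each of the 5 triangles lies left of its circle, between 5.15 and 7.12.

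At Grb10 and Ddc, neighbours on chromosome 11, 3 of the 8 WT peaks had a Tet2 KO peak, which is 3 of the 5 Tet2 KO peaks at imprinted genes. Grb10 encodes an adaptor that dampens insulin and IGF receptor signalling, and outside the brain is expressed from the maternal copy. Its 1 WT peak, at chr11:11839643-11839946, lay in an intron 98892 bp from the annotated gene start and 1175 bp upstream of the start of another annotated Grb10 transcript. It had a fold enrichment of 19 from 37 fragments, above 99.9% of all WT peaks, and in Tet2 KO the site had 7.12 from 16 fragments. No peak was listed in either genotype at the annotated gene start. The CpG-rich start that RefSeq gives (observed over expected CpG 1.06) was 34982 bp from the nearest WT peak.

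Ddc encodes aromatic amino acid decarboxylase and is imprinted for an isoform of the heart. Its 7 WT peaks all lay in introns, with fold enrichments from 5.02 to 12.1, and none lay at its start. At chr11:11744405-11744890 the WT fold enrichment was 12.1 from 35 fragments and the Tet2 KO value 5.70 from 14. At chr11:11720815-11721057 the WT value was 11.6 from 29 fragments and the Tet2 KO value 5.15 from 12. The 8 peaks of this cluster had few CpG sites, with an observed over expected CpG from 0.11 to 0.32.

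The Igf2r-Airn cluster on chromosome 17 had the most WT peaks of any cluster, 10, and 1 Tet2 KO peak. Igf2r clears IGF2 from the cell surface and is expressed from the maternal copy, and Airn is a long noncoding RNA that runs across it from the paternal copy and silences it. The WT peak at the Airn start had a fold enrichment of 9.29 from 20 fragments, and covered the RefSeq start at position 12934177. In Tet2 KO the nearest listed peak was 18516 bp away with no number skipped between its neighbours, so no peak was called at that start. The shared peak, at chr17:12952519-12952899, lay 9821 bp inside Igf2r and had a fold enrichment of 7.95 from 28 fragments in WT and 5.46 from 15 in Tet2 KO, the smallest of the 5 differences with a ratio of 1.45. Another WT peak, with a fold enrichment of 6.14 at chr17:12944199-12944435, lay at the start of a shorter Igf2r transcript. The CpG-rich main start of Igf2r (observed over expected CpG 0.98) had no listed peak. The other WT peaks lay in introns, with fold enrichments up to 8.53.

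Promoter peaks of any annotated transcript were listed in WT for 8 of 38 members, beside 29.9% of protein-coding and lincRNA genes. Inpp5f, an inositol phosphatase with an imprinted brain isoform, was the only member with a Tet2 KO peak at its promoter, beside 7.83% of protein-coding and lincRNA genes. The WT peak, at chr7:135754461-135754867, had a fold enrichment of 11.7 from 22 fragments, and the Tet2 KO peak had 5.45 from 12. Its 3 other WT peaks lay in introns, with fold enrichments from 6.17 to 6.99, and had no Tet2 KO peak.

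Over the 5 shared peaks the WT fold enrichment was 1.45 to 2.67 times that of Tet2 KO, with a median of 2.14. Over all 3633 overlapping pairs the median was 1.88, with quartiles of 1.6 and 2.21. The Grb10 site, at 2.67, and the Ddc site at chr11:11720815-11721057, at 2.25, were above the upper quartile, and the Igf2r and Airn site, at 1.45, was below the lower. The fold enrichment is set against each library's own background, and the background was higher in Tet2 KO.

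**Figure D3:**
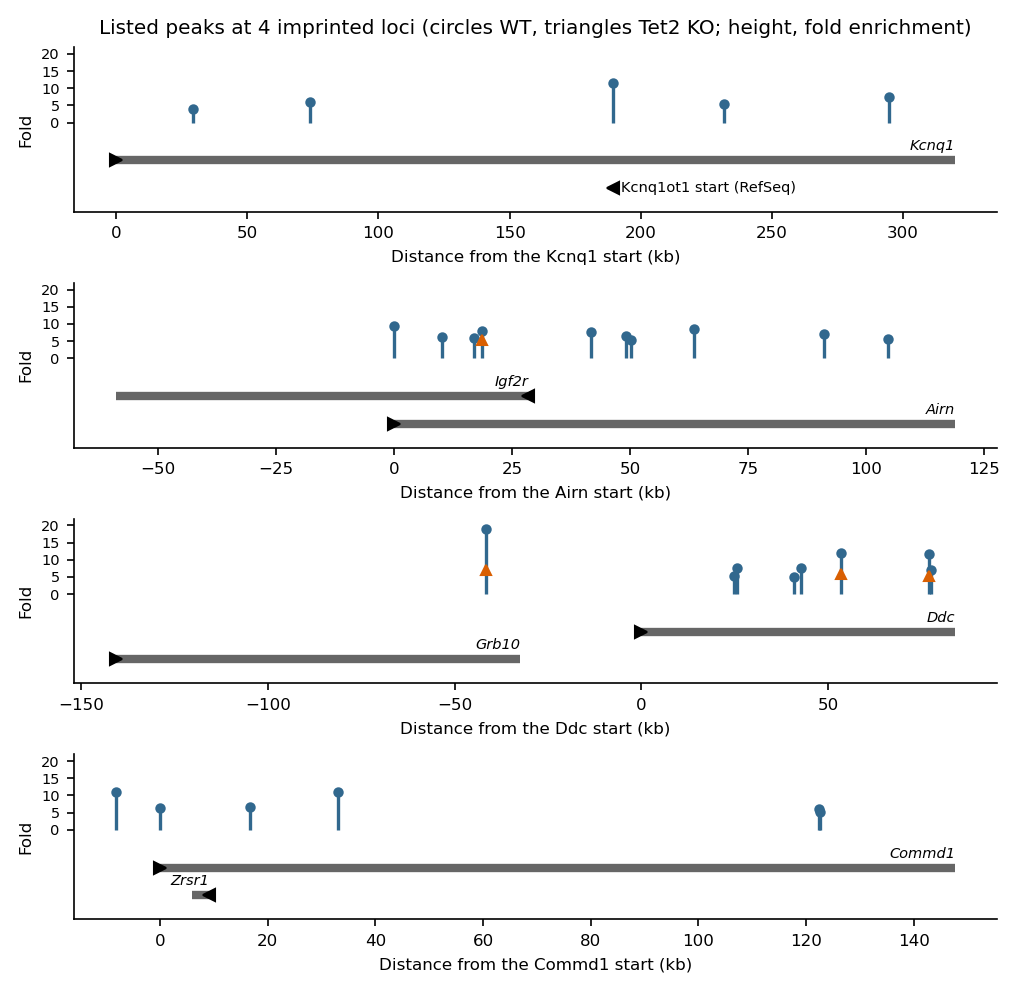
Listed peaks by distance in kb from a gene start (x axis) at Kcnq1, Igf2r and Airn, Grb10 and Ddc, and Zrsr1 and Commd1, with circles for WT, triangles for Tet2 KO, height for fold enrichment, grey bars for the annotated genes and black arrowheads for their starts and directions. WT peaks stand at the starts of Airn (9.29) and Commd1 (6.45) and at the Kcnq1ot1 start inside Kcnq1 (11.4), and triangles stand only at Grb10, Ddc and the Igf2r and Airn overlap.

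The Kcnq1 cluster on chromosome 7 had 5 WT peaks and 0 Tet2 KO peaks, and all 5 lay in introns of Kcnq1, which encodes a potassium channel subunit. Their fold enrichments were 4.02, 5.46, 5.88, 7.47 and 11.4. The strongest, with 25 fragments, covered position 150482452, where the 300 bp RefSeq promoter of Kcnq1ot1 matched mm9 exactly and so placed its start. Kcnq1ot1 is the long noncoding RNA whose start lies in the DMR that controls this cluster, and it was looked up after the peak values had been seen. In Tet2 KO no number was skipped across Kcnq1, so no peak was called in it, and the nearest listed peak to the Kcnq1ot1 start was 227056 bp away. Cdkn1c, which encodes the cell cycle inhibitor p57, Phlda2, which limits placental growth, and the transporter Slc22a18 had 0 peaks and 0 skipped numbers in both lists, so none was called there in either library. Ascl2, a transcription factor of the placenta, had 0 listed peaks with 1 number skipped in each list.

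At Peg3, on chromosome 7, 3 WT peaks and 0 Tet2 KO peaks were listed. Peg3, a zinc finger gene, starts back to back with Usp29, of the ubiquitin-specific protease family. The WT peak at chr7:6683133-6683281 lay between them, 3 bp from the RefSeq start of Peg3 and 13 bp from that of Usp29, with a fold enrichment of 6.28 from 25 fragments. GENCODE M1 places the Usp29 start elsewhere, so by the window rule Usp29 had 0 peaks. A second WT peak, at chr7:6681081-6681630 in an intron of Peg3, 1777 bp from its start, had a fold enrichment of 6.78 from 27 fragments and 18 CpG sites. Its last 296 bp, at chr7:6681335-6681630, are shown because they hold 2 YY1 motifs with 1 E box and 1 AP-1 motif between them (plus strand, motifs in capitals).
Peg3 intron: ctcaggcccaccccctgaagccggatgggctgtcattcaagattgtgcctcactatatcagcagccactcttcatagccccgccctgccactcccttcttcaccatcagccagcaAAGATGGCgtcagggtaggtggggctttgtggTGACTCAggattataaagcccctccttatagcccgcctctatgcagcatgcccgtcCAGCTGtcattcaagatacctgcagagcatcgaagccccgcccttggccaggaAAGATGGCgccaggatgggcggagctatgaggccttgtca
Zim1, a neighbouring zinc finger gene expressed from the maternal copy, had the strongest promoter peak of the members, with a fold enrichment of 14.4 from 35 fragments, above 97.9% of WT peaks. The nearest listed Tet2 KO peak was 525296 bp from its start, and 10 Tet2 KO numbers were skipped across that stretch, so a site called but not listed cannot be told apart from none.

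The Zrsr1-Commd1 cluster on chromosome 11 had 6 WT peaks and 0 listed Tet2 KO peaks, with 3 Tet2 KO numbers skipped there. Zrsr1 is a splicing factor gene expressed from the paternal copy and lies inside an intron of Commd1, which encodes a COMM domain protein. The Commd1 promoter peak had a fold enrichment of 6.45 from 11 fragments and was the only one of the 49 with the CTCF core, which 0.136% of all WT peaks hold. The only WT peak in the Zrsr1 window lay in a Commd1 intron, 7587 bp upstream of Zrsr1. The CpG-rich Zrsr1 start had no listed peak. Promoters of genes outside the list gave 3 further peaks in the Commd1 window, 2 of them beside B3gnt2, with fold enrichments of 5.10 and 6.15, and 1 at Cct4, with 11.1.

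The Snrpn-Ube3a cluster, the region of the Prader-Willi and Angelman syndromes, had 2 WT peaks and 0 Tet2 KO peaks. Ube3a, a ubiquitin ligase gene imprinted in neurons, had a promoter peak with a fold enrichment of 9.17 from 20 fragments. Peg12, of a family in Wnt signalling, had a peak in its exon with 9.95 from 18. Snrpn, Ndn, Magel2 and Mkrn3, which are expressed from the paternal copy, had 0 listed peaks in both lists, and 1 WT and 3 Tet2 KO numbers were skipped across that stretch. The nearest listed WT peak lay 643214 bp from the Snrpn window, and the nearest listed Tet2 KO peak 119785 bp from it.

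In the Dlk1-Dio3 cluster on chromosome 12 only Rian, a noncoding RNA that hosts small nucleolar RNAs, had WT peaks, with fold enrichments of 9.68 and 8.51, and 0 Tet2 KO numbers were skipped there. Dlk1, which encodes a membrane protein related to Notch ligands, and Dio3, which encodes a deiodinase that inactivates thyroid hormone, had 0 listed peaks, with 1 WT number skipped at each. The noncoding RNA genes Meg3 and Mirg and the retrotransposon-derived Rtl1 had 0 peaks and 0 skipped numbers in both lists. The window edge mattered at Mirg, where a WT peak began 313 bp and a Tet2 KO peak 401 bp beyond the gene end, and at Meg3, where a WT peak ended 423 bp before the window.

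At H19 and Igf2 on chromosome 7 no peak was listed in either genotype. H19 is a maternal noncoding RNA and Igf2 encodes the paternal growth factor, and both are governed by a control region upstream of H19 that CTCF binds on the maternal copy. The nearest WT peak lay 12329 bp beyond the H19 window, and 1 number was skipped in each list, so a site called but not listed cannot be told apart from none. Mest, Nap1l5 and Peg10 had 0 listed peaks in both lists and 0 skipped WT numbers.

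The remaining clusters had 1 to 3 WT peaks and 0 listed Tet2 KO peaks. Tet2 KO numbers were skipped at Nnat (8), Rasgrf1 (5), Plagl1 (4), Impact (4) and Gnas (2), and 0 at Sgce. Gnas, which encodes a G protein alpha subunit and alternative transcripts, had 3: at an internal transcript start with a fold enrichment of 10.5, and in introns with 8.42 and 7.73. Rasgrf1, a Ras exchange factor, had a peak 2966 bp upstream of its start with 14.4 from 25 fragments and 0 CpG sites in the 500 bp around it. Nnat, which encodes neuronatin, had a peak 7406 bp upstream with 11.6. Plagl1, a zinc finger transcription factor gene, had a peak 8070 bp upstream with 8.74. Sgce, which encodes epsilon-sarcoglycan of the muscle membrane, had a peak 38065 bp inside the gene with 9.73. Impact, a regulator of translation on chromosome 18, had 2 intronic peaks, 1125 and 2193 bp from its start, with 8.16 and 4.81, and both were CpG-rich.

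Most member peaks were poor in CpG. A 500 bp window was called CpG-rich when its GC content was at least 50% and its observed over expected CpG at least 0.6. By this rule 8 of 49 WT peaks were CpG-rich (16.3%, interval 8.51 to 29.0%), beside 22.9% of all WT peaks. They were the promoters of Zim1, Ube3a and Commd1, 3 further promoters in the Commd1 window and the 2 Impact peaks, and 0 of the 8 had a Tet2 KO peak, beside 24.3% of all CpG-rich WT peaks. Of the 5 Tet2 KO peaks 0 were CpG-rich, beside 38.3% of all Tet2 KO peaks, and with 5 peaks the interval reached 43.4%. The member peak nearest below the limit was the Inpp5f promoter, at 0.55, and the nearest above was a promoter beside B3gnt2, at 0.60. The median observed over expected CpG was 0.23 in member peaks and 0.26 in all WT peaks.

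**Figure D4:**
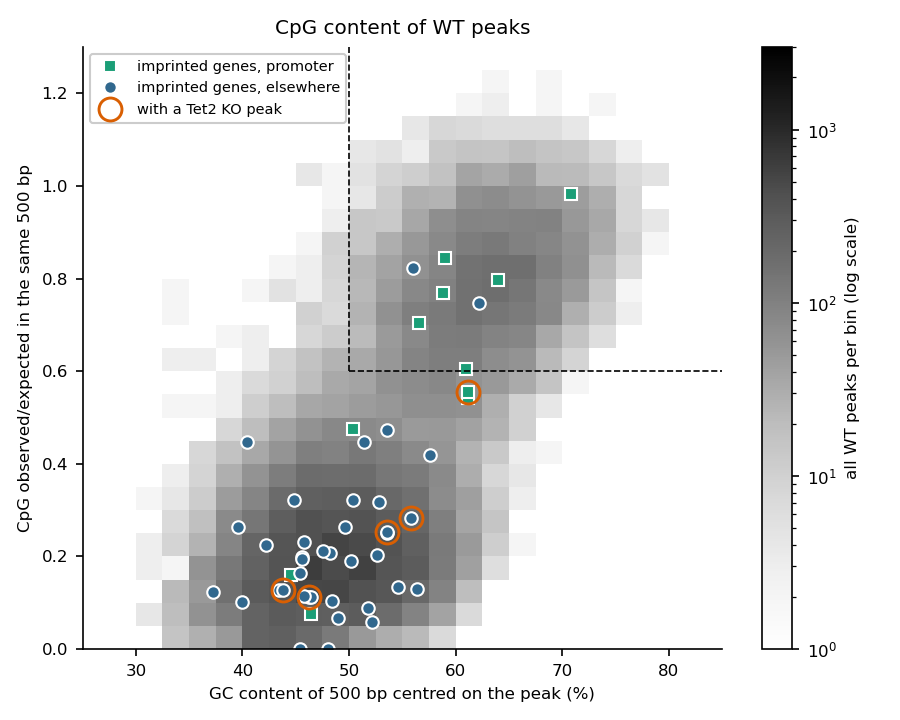
Observed over expected CpG (y axis) against GC content in percent (x axis) of the 500 bp centred on each WT peak, in grey bins for all 25775 WT peaks on a log scale, with squares for member peaks at promoters, circles for other member peaks and orange rings for those with a Tet2 KO peak. Dashed lines bound the CpG-rich corner, which holds 8 of the 49 member peaks and 0 of the 5 rings.

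The member peaks lay in introns more than at promoters. Of the 49, 33 lay in introns (67.3%, interval 53.4 to 78.8%), beside 36.3% of all WT peaks, and the window rule, which takes in gene bodies and leaves out intergenic sequence, bears on this share. Promoters, from 1000 bp upstream to 100 bp downstream of any transcript start, held 11 (22.4%, interval 13 to 35.9%), beside 27.3%. By motif, 22.4% of member WT peaks held TGCCGC in 500 bp (interval 13 to 35.9%; all WT peaks 14.3%), 46.9% held CAGCTG (all 46.9%), 40.8% held TGANTCA (all 41.6%) and 14.3% held GCCATNTT (all 8.76%).

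At the gene starts themselves the CpG-rich members had few peaks. Of 38 annotated starts 19 were CpG-rich, beside 47.4% of protein-coding and lincRNA genes. A WT peak lay at the start of 3 of these 19, Zim1, Ube3a and Commd1 (15.8%, interval 5.52 to 37.6%), beside 45.1% of all CpG-rich starts, a share above the interval. Among the 19 other starts 3 had a WT peak, Peg3, Airn and Inpp5f, beside 7.31%. In Tet2 KO, 0 of 19 CpG-rich starts (all genes 12.2%) and 1 of 19 others, Inpp5f (all genes 1.58%), had a peak. Over all 38 starts this made 6 in WT, beside 25.2% of protein-coding and lincRNA genes, and 1 in Tet2 KO, beside 6.61%. The Inpp5f start is close to the limit, at 0.586 here and 0.631 at its RefSeq start 37 bp away. By the RefSeq start its WT and Tet2 KO peaks would count at a CpG-rich start. The 6 CpG-rich starts inside egg-methylated DMRs, those of Peg10, Sgce, Plagl1, Nnat, Nap1l5 and Zrsr1, had 0 WT peaks (interval up to 39%), and the 13 other CpG-rich starts had 3 (23.1%, interval 8.18 to 50.3%). Peg10 and Sgce start back to back, at positions 4697306 and 4697204, with overlapping 500 bp windows. Both are counted here and in the motif count below, so they are not separate sites. TGCCGC was found in the 500 bp at the start of 7 of the 12 genes with a DMR promoter and of 4 of the 26 others, beside 24.8% of protein-coding and lincRNA genes. RefSeq places the Usp29 and Mest promoters elsewhere and gives Snrpn further starts, among them a start with TGCCGC. At RefSeq starts 3 of the 9 DMR genes with an entry had a WT peak within 1000 bp and 0 a Tet2 KO peak. The 3 were Airn, Peg3 and Usp29, the last of these through the Peg3 peak. Of the 9 genes 6 held TGCCGC at a RefSeq start. The starts used here are those of GENCODE M1, which lie over 1000 bp from the nearest RefSeq start for 4 of the 31 members with both, Usp29, Mest, Grb10 and Zrsr1. With the 47 RefSeq starts that could be placed for 32 of the 39 genes, 8 genes had a WT peak within 1000 bp of a start (Airn, Commd1, Inpp5f, Kcnq1ot1, Peg3, Ube3a, Usp29 and Zim1) and 1 a Tet2 KO peak, Inpp5f.

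**Figure D5:**
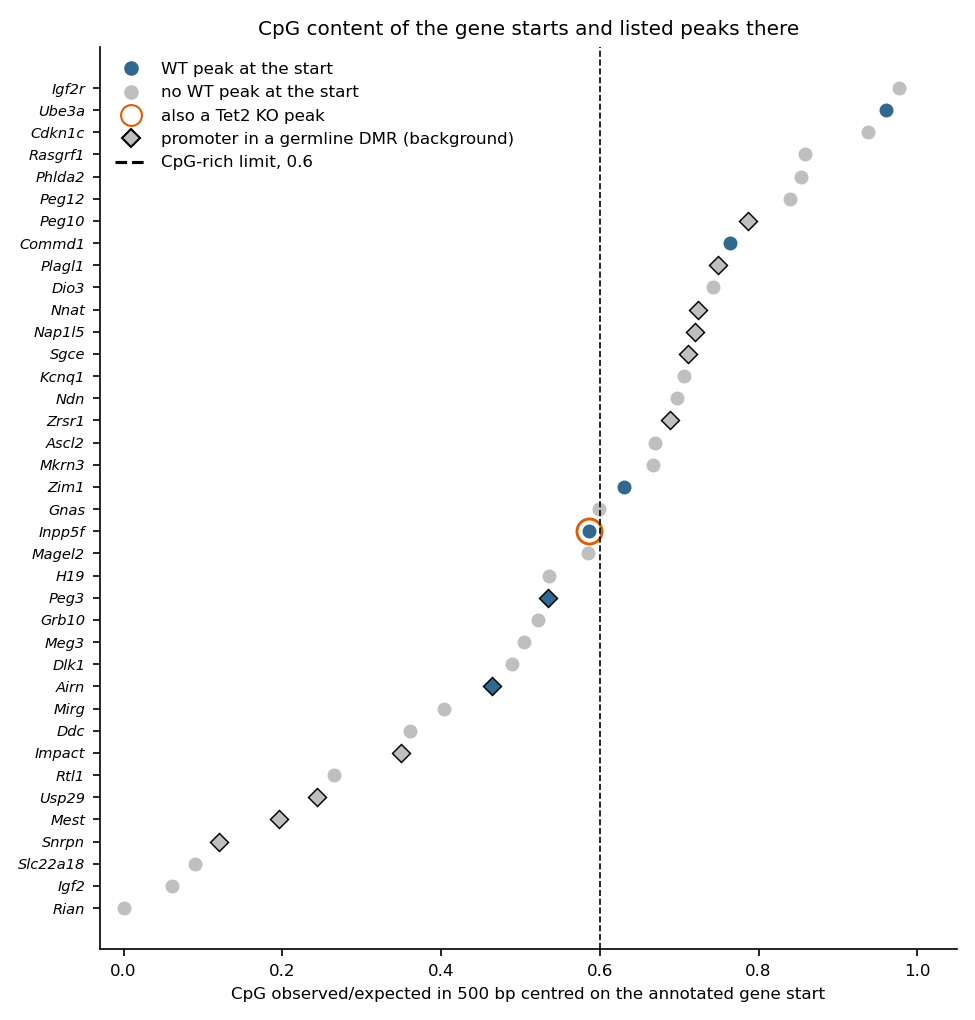
Observed over expected CpG in the 500 bp centred on the annotated start (x axis) of the 38 imprinted genes (y axis, in order), in blue where a WT peak lies at the start, in grey where none does, ringed in orange where a Tet2 KO peak lies there too, and as diamonds where the promoter lies in an egg-methylated DMR. Blue symbols stand at 6 starts, 3 on each side of the dashed limit of 0.6, and the only ring is at Inpp5f.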

How the data were processed

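Peak lists of ATAC-seq from WT and Tet2 KO primary myoblasts were used, 1 per genotype, assigned by the genotype in the name of each list. The authors trimmed the reads, aligned them to mm9 with Bowtie2, removed duplicates with Picard and called peaks per sample with MACS2. The deposited values are the MACS2 score, the fold enrichment at the summit (a ratio to the local background of the same library), and the -log10 p and -log10 q. The score the authors deposited follows the -log10 q in WT and the -log10 p in Tet2 KO and was not used. Replicates, signal tracks and read totals were not analysed here.

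Fragments at each summit were solved from the fold enrichment and -log10 p by the Poisson formula (error under 0.001 for 100% of peaks). Genes came from GENCODE M1 and sequence from NCBIM37, which is mm9. RefSeq promoter sequences (GRCm38.p6, 250 bp before to 50 bp after a start) were placed on NCBIM37 by exact match, and the 7 genes without an entry or match were Peg10, Cdkn1c, Sgce, Kcnq1, Impact, Rtl1 and H19. CpG content was taken from the 500 bp centred on a peak or start. Overlap meant at least 1 bp. The members, gene lists and motifs were chosen with earlier results of these data known. All members in the annotation are named, and a peak is given its own values where it lies at a promoter, has a Tet2 KO peak or is the strongest of its cluster; others, with the Kcnq1ot1 start, were chosen after their values were seen. With 1 list for each genotype there were no replicates to test, and shares are set beside those over all peaks or genes. Scripts were tested on simulated data, and 100% of 3000 pileups, 500 overlaps and 200 CpG counts were recovered. The alternatives were limits on -log10 q and fold enrichment, equal list lengths, other gene windows, overlap rules, promoter and CpG definitions, and merging of peaks within 500 bp. Calculations ran in Python 3.11.15 (pandas 2.3.3, numpy 2.4.6, scipy 1.17.1) and plots were drawn with matplotlib 3.10.9.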

Additional observations from a re-analysis of the deposited data

How the results depend on the processing

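The 10 main values were recomputed under 14 alternatives, which gave 61 values, of which 46 stayed within 1.5 times a count or within the counting interval of a share. The others are given here, and why they moved was not tested. Under a limit of 5 on the -log10 q, 3 Tet2 KO peaks remained and 0% of them lay at promoters. With promoters alone there were 8 WT peaks at 8 genes and 1 Tet2 KO peak at 1 gene. With 50000 bp on either side of each gene there were 87 WT peaks at 31 genes and 10 Tet2 KO peaks at 10 genes. With overlap over at least 50% of each peak, 0% of the member WT peaks had a Tet2 KO peak, beside 10% of all WT peaks. When the WT list was cut by -log10 q to the length of the Tet2 KO list, 7 WT peaks at 6 genes remained, the ratio was 1.4 (1 over all peaks by construction) and 42.9% had a Tet2 KO peak, beside 55.3% of all WT peaks kept. Under this setting alone a member had more Tet2 KO than WT peaks, namely Igf2r, Airn and Inpp5f, with 0 and 1 each.

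No paired analysis was possible because the lists, 1 per genotype, carry no replicate number. Leaving out a replicate was likewise not run. Depth limits the absences: the smallest listed summits hold 6 fragments in WT and 7 in Tet2 KO, and sites below these, or called under a skipped number, are not seen.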

Other observations

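A second list of 26 imprinted genes, neighbours of the members or genes at other loci, was counted in the same windows, and none of its peaks were shared with the members. In the annotation 24 were found, of which 15 had a WT peak, beside 49.6% of protein-coding and lincRNA genes, and 5 a Tet2 KO peak, beside 13.6%. They held 28 WT peaks, of which 4 had a Tet2 KO peak, beside 14.1% of all WT peaks, and 6 Tet2 KO peaks. Atp10a, which encodes a lipid flippase next to Ube3a, had 7 WT peaks and 0 Tet2 KO peaks, and Trappc9, of a vesicle tethering complex, had 4 and 1. Promoter peaks were listed in WT for 6 of the 24, Copg2, Atp10a, Tssc4, Nap1l4, Osbpl5 and Trappc9, beside 29.9% of protein-coding and lincRNA genes. In Tet2 KO they were listed for 3, Tssc4, Nap1l4 and Trappc9, beside 7.83%. Tssc4 and Nap1l4 lie on either side of Kcnq1, Cdkn1c, Slc22a18 and Phlda2, which had 0 Tet2 KO peaks. Tssc4 and Nap1l4 had 2 and 1 Tet2 KO peaks, and 2 WT peaks each.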
